A study of Arabidopsis thaliana with 12 samples.

Results

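The genes described here are the 6 loci of the isochorismate route to salicylic acid (SA) and of its activation: *ICS1* (AT1G74710), *EDS5* (AT4G39030), *PBS3* (AT5G13320), *EPS1* (AT5G67160), *CBP60G* (AT5G26920) and *SARD1* (AT1G73805). They were chosen with earlier results of these data known and taken by locus code from a deposited table of 18884 genes of *Arabidopsis thaliana*. All 6 were among the 18877 genes tested. Polyadenylated RNA came from leaves of untreated plants, grown for 5 weeks on soil at 22 °C and 60% humidity with 10 h of light a day. The 4 genotypes had 3 libraries each. Col-0 is the wild type. TPR1-GFP is Col-0 with pTPR1:TPR1-GFP, a copy of the corepressor gene *TPR1* that is tagged with green fluorescent protein and driven by the *TPR1* promoter. TPR1-GFP sid2-1 and TPR1-GFP eds1-2 carry the same transgene together with a mutant allele of *ICS1* or of *EDS1*, so no mutant without the transgene is among these groups, and the wild type alone lacks it. How many transformants the lines go back to is not given in the sources used here. The libraries came from 3 independent experiments, but no replicate number is tied to an experiment, so the p-values reflect the spread among these libraries alone.

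SA is a plant hormone of defence against pathogens that live on living tissue, and leaves make most of their induced SA from chorismate. In the plastid ICS1, isochorismate synthase, turns chorismate into isochorismate, and the transporter EDS5 carries it into the cytosol. There PBS3 joins it to glutamate, and the product falls apart to SA by itself or with the help of EPS1, an acyltransferase-like protein of the Brassicaceae. CBP60G and SARD1 are related transcription factors that bind the *ICS1* promoter and raise its transcription, and CBP60G, unlike SARD1, binds calmodulin. EDS1 is a lipase-like protein through which receptors of the TIR class signal, and TPR1 belongs to the TOPLESS family of corepressors.

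None of the 6 genes is on chromosome 3, which carries *EDS1*. *SARD1* lies near *ICS1*, the gene that sid2-1 mutates, on chromosome 1. The part of this nearness in the results on the sid2-1 line was not tested. In the reference assembly TAIR10.1, *ICS1* runs from 28070295 to 28074177 on the plus strand of chromosome 1, and *SARD1* from 27744790 to 27749248 on its minus strand. *EDS5* is on chromosome 4 (18185437 to 18189224, plus strand). *PBS3* (4267456 to 4271064, plus strand), *CBP60G* (9475679 to 9478777, plus strand) and *EPS1* (26797596 to 26799265, minus strand) are on chromosome 5, and *EPS1* has a single exon while *ICS1* and *EDS5* have 12 in the longest transcript. Reads were counted per gene without a stated strand setting. *EDS5* shares 213 exonic bases, 9.4% of its exons, with AT4G39040 on the other strand, a gene with 1189 to 2990 counts per library, and *SARD1* shares 640 bases, 26.7%, with AT1G73790, a gene with 87 to 143 counts. Whether reads from these stretches were told apart by strand is thus not known.

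The 250 bases before the gene start are shown for *ICS1*, the target of both activators, for *SARD1*, the member with the most motif matches in this window, for *EPS1*, whose levels stood apart from those of the others, and for *ICS2*, the paralog of *ICS1* that went the other way. Capitals mark TTGAC, the core that WRKY factors bind, and GAAATTT, a sequence known to be bound by CBP60G and SARD1, each on either strand. Sequences are from RefSeq, TAIR10.1, and are written 5′ to 3′ on the strand of the gene.
ICS1 promoter, chr1:28070045-28070294, plus strand: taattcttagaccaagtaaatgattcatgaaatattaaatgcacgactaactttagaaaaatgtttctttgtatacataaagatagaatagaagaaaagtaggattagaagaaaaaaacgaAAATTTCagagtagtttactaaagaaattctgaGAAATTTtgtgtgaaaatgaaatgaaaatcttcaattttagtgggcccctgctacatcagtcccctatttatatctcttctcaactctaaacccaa
SARD1 promoter, chr1:27749249-27749498, minus strand: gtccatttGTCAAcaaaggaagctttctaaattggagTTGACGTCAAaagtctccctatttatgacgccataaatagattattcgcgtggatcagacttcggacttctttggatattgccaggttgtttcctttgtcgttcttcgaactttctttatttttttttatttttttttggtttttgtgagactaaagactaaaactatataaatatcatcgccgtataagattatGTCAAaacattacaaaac
EPS1 promoter, chr5:26799266-26799515, minus strand: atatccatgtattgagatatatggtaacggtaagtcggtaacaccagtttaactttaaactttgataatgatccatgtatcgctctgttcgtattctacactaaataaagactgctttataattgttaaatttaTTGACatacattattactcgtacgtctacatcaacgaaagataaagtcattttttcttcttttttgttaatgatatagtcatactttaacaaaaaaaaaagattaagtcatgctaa
ICS2 promoter, chr1:6515123-6515372, plus strand: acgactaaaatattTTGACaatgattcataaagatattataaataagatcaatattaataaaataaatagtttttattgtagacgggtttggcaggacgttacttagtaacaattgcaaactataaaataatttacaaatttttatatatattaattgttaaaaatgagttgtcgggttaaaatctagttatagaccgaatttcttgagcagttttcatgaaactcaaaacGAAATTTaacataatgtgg
The *ICS1* window held GAAATTT at 2 places, first bases −129 and −96 from the gene start, and no TTGAC. Of 27443 such windows of the genome, 12.5% hold GAAATTT and 44.9% hold TTGAC. *SARD1* had 4 matches to TTGAC, at −242, −213, −208 and −18, and those at −213 and −208 form a palindrome. It also had 3 matches to TGACG, a core bound by TGA factors that 18.6% of windows hold, and those at −212 and −209 overlap the TTGAC matches. A further match, to CGCGT, the core that CAMTA factors bind and that 6.9% of windows hold, lay at −167. *EDS5* had TTGAC at −234 and −105, *EPS1* had it at −116, and *ICS2* had TTGAC at −236 and GAAATTT at −19. TGGGCC, a core bound by class I TCP factors and held by 13.7% of windows, was found in *ICS1* alone among these 7 genes, at −55. The windows of *PBS3* and *CBP60G* held none of the 5 motifs, which says only that these letters do not occur in 250 bases.

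Library totals ran from 19628974 to 32018583 counts. The 6 genes together took 0.00428 to 0.0134% of all counts in Col-0 and 0.0686 to 0.124% in TPR1-GFP, against 0.0679 to 0.0840% in TPR1-GFP sid2-1 and 0.00621 to 0.00738% in TPR1-GFP eds1-2. *TPR1* transcripts, in which the native gene and the transgene cannot be separated, stood at 68.3 to 74.1 counts per 1e6 counts (CPM) in Col-0 and at 1539 to 1748 CPM in TPR1-GFP. They stood at 776 to 1305 CPM in TPR1-GFP sid2-1 and 990.2 to 1327 CPM in TPR1-GFP eds1-2, below the TPR1-GFP range, and the part of this difference in the results on the double lines was not tested. *EDS1* (AT3G48090) had 13.5 to 15.99 CPM in TPR1-GFP eds1-2 and 29.6 to 60.8 CPM in Col-0. In edgeR's quasi-likelihood test its log2 change was 1.88 in TPR1-GFP against Col-0 (adjusted p = 7.44e-05). Against TPR1-GFP it was −3.32 in TPR1-GFP eds1-2 (adjusted p = 3.74e-06). The second *EDS1* gene, AT3G48080, changed against TPR1-GFP by −2.68 in TPR1-GFP eds1-2 (adjusted p = 0.000286) and by −2.24 in TPR1-GFP sid2-1 (adjusted p = 0.00486). The part of this in the results was not tested. Since sid2-1 is a point mutation within the coding region, counts of *ICS1* are no check on which plants carry it. Of the fixed markers, all 4 leaf mesophyll genes were found in every library. Their summed level was 36880 to 44790 CPM in Col-0, 17640 to 21370 CPM in TPR1-GFP, 23500 to 25500 CPM in TPR1-GFP sid2-1 and 32440 to 38070 CPM in TPR1-GFP eds1-2, and all 4 fell in TPR1-GFP against Col-0. In bulk leaf RNA, fewer cells of a type and less RNA per cell cannot be told apart. Of 3 flower markers 1 (*AG*) was in the table. It had 0.298 to 0.95 CPM in Col-0, 0.0796 to 0.287 CPM in TPR1-GFP, 0.10 to 0.169 CPM in TPR1-GFP sid2-1 and 2.002 to 2.26 CPM in TPR1-GFP eds1-2, and was called higher in the last against TPR1-GFP (log2 change 3.3, adjusted p = 8.47e-05) and against Col-0 (1.76, adjusted p = 0.0095). The other flower markers, the 3 root markers and the late senescence marker *SAG12* were not among the genes analysed here. Summed phloem markers (2 genes) ran from 208 to 292 CPM in Col-0, 222 to 243 CPM in TPR1-GFP, 232 to 251 CPM in TPR1-GFP sid2-1 and 354 to 402 CPM in TPR1-GFP eds1-2, and summed guard cell markers (3 genes) from 64.4 to 105 CPM over all libraries. The part of these markers in the results was not tested.

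The first comparison asks what the TPR1-GFP transgene goes along with in otherwise wild-type plants. All 6 genes rose in TPR1-GFP against Col-0, by 3.38-fold for *EPS1*, 7.88-fold for *CBP60G* and 9.19-fold to 16.8-fold for the other 4. *ICS1* had 49.9, 26.6 and 10.3 CPM in the Col-0 libraries (replicates 1, 2 and 3) and 208, 266 and 368 CPM in the TPR1-GFP libraries. *EDS5* stood at 12.7, 5.42 and 6.18 CPM in Col-0 against 60.3, 81.9 and 109 CPM in TPR1-GFP. *PBS3* had 13.8, 4.12 and 7.07 CPM against 98.0, 134 and 187 CPM in the same order. For these 3 genes every TPR1-GFP library lay above every Col-0 library, which was so for 31.1% of all genes, and replicate 1 was the highest of Col-0 and the lowest of TPR1-GFP. *EPS1*, with 21 to 36 counts per library the weakest signal in Col-0, had 1.80, 1.04 and 1.25 CPM there and 3.77, 5.64 and 4.38 CPM in TPR1-GFP. Of the activators, *CBP60G* stood at 31.5, 24.4 and 16.04 CPM in Col-0 against 133, 179 and 255 CPM in TPR1-GFP. *SARD1* stood at 33.9, 13.9 and 7.27 CPM in Col-0 against 119, 162 and 222 CPM in TPR1-GFP. Col-0 thus varied most for *SARD1*, *ICS1* and *PBS3*, with SDs of 75.6%, 68.7% and 59.5% of the mean, against 28.9 to 32.6% in TPR1-GFP for all members but *EPS1*.

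**Figure D1:**
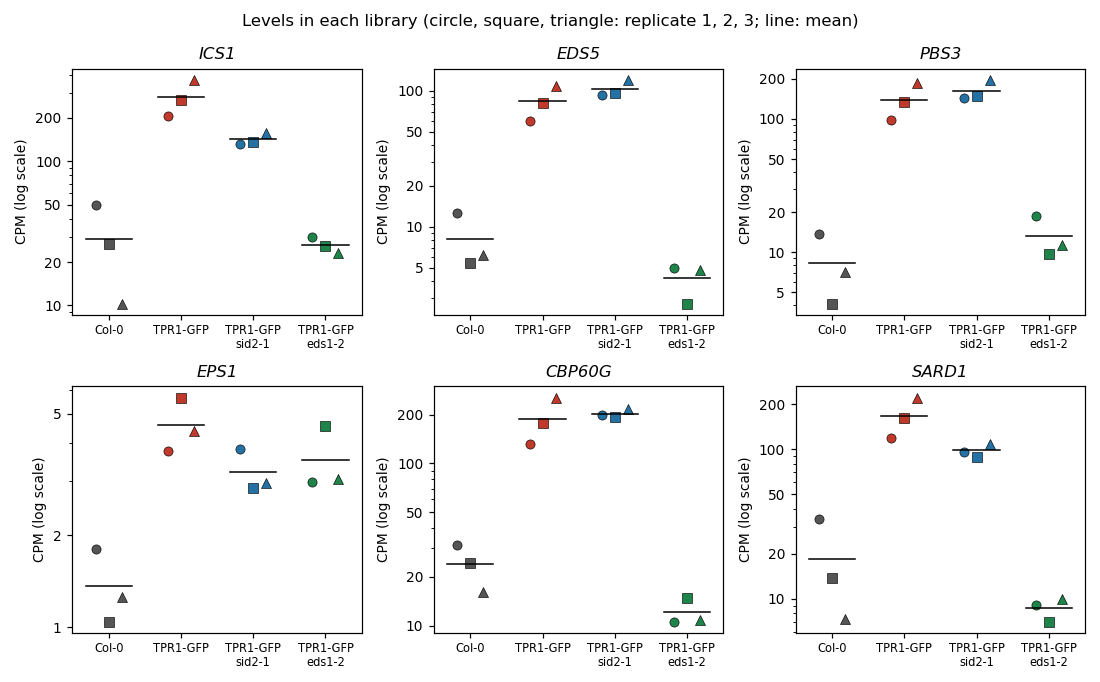
CPM of each gene (vertical axis, log scale) in the 12 libraries by genotype (horizontal axis). Circles, squares and triangles are replicates 1, 2 and 3, and lines are means. The TPR1-GFP libraries lie above all Col-0 libraries in each panel, and the TPR1-GFP eds1-2 libraries lie far below TPR1-GFP in 5 panels but not for *EPS1*.

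In edgeR's quasi-likelihood test the log2 changes in TPR1-GFP against Col-0 were 3.28 for *ICS1* (standard error, SE, 0.44, adjusted p = 0.000131), 3.38 for *EDS5* (SE 0.34, adjusted p = 2.17e-05) and 4.07 for *PBS3* (SE 0.42, adjusted p = 2.61e-05). For *EPS1* the change was 1.76 (SE 0.26, adjusted p = 0.00022). The activators changed by 2.98 (*CBP60G*, SE 0.27, adjusted p = 1.27e-05) and 3.20 (*SARD1*, SE 0.45, adjusted p = 0.000167). Adjusted p-values are over all genes tested, a gene is called under 0.05, and 27.5% of all genes were called higher in this comparison and 26.4% lower. The median change of the 6 genes was 3.24, and that of all genes 0.00809. By size of change *PBS3* stood at rank 266 of 18877 genes, *EPS1* at 1234 and the other 4 between 402 and 522. The 6 calls held with each library left out in turn and in all other alternatives tried, and in the authors' deposited table the log2 changes were 1.79 to 4.20.

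The second comparison asks whether these levels depend on ICS1 function, and so on the SA that this route makes. For *ICS1*, the mutated gene, the part of the mutation in its own transcript level cannot be told apart from that of lost function. With sid2-1 in the line all 6 genes remained above Col-0, and none was called different from TPR1-GFP. *EDS5* had 93.5, 96.8 and 121 CPM, *PBS3* 144, 149 and 197 CPM and *CBP60G* 199, 193 and 217 CPM in TPR1-GFP sid2-1. Each of these groups overlapped the TPR1-GFP libraries and had a mean of 108 to 124% of theirs. *ICS1* had 132, 136 and 157 CPM and *SARD1* 96.4, 89.1 and 109 CPM, and for both every sid2-1 library lay below every TPR1-GFP library. Their means were 50.5% (*ICS1*) and 58.5% (*SARD1*) of the TPR1-GFP mean. *EPS1* stood between, at 3.82, 2.85 and 2.97 CPM, 69.9% of the TPR1-GFP mean, and its groups overlapped.

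In TPR1-GFP sid2-1 against TPR1-GFP the log2 changes, with 95% intervals, were −0.99 for *ICS1* (−1.87 to −0.10, adjusted p = 0.114) and −0.77 for *SARD1* (−1.67 to 0.12, adjusted p = 0.209). They were 0.31 for *EDS5* (−0.34 to 0.96), 0.23 for *PBS3* (−0.57 to 1.02), 0.10 for *CBP60G* (−0.44 to 0.65) and −0.53 for *EPS1* (−1.06 to 0.0049), with adjusted p-values from 0.154 to 0.80. None of the 6 was thus called by edgeR, by DESeq2 or in the authors' deposited table, 1 (*ICS1*) had an unadjusted p under 0.05, and of all genes 16.8% were called, 9.70% higher and 7.14% lower. Groups that did not overlap and were lower in the sid2-1 line, as for *ICS1* and *SARD1*, occurred for 19.8% of all genes. All 4 genotypes share the estimate of spread, and these calls changed with the libraries used. With the 2 groups alone, *ICS1* (−0.97, adjusted p = 0.00709) and *SARD1* (−0.76, adjusted p = 0.0236) were called lower. They were also called without Col-0 replicate 1 (adjusted p = 0.0359 and 0.0478), and *ICS1* without Col-0 replicate 3 (adjusted p = 0.0201), and neither was called without any other library.

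Against Col-0 all 6 were higher in TPR1-GFP sid2-1, where 22.1% of all genes were called higher. The log2 changes were 2.30 for *ICS1* (SE 0.43, adjusted p = 0.00169), 3.69 for *EDS5* (SE 0.34), 4.30 for *PBS3* (SE 0.42), 1.23 for *EPS1* (SE 0.27, adjusted p = 0.00396), 3.08 for *CBP60G* (SE 0.27) and 2.43 for *SARD1* (SE 0.44). As a share of the log2 rise in TPR1-GFP against Col-0, which uses the same Col-0 libraries, 70% was kept for *ICS1* and for *EPS1* and 75.9% for *SARD1*. For *EDS5*, *PBS3* and *CBP60G* the share was 109%, 106% and 104%.

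**Figure D2:**
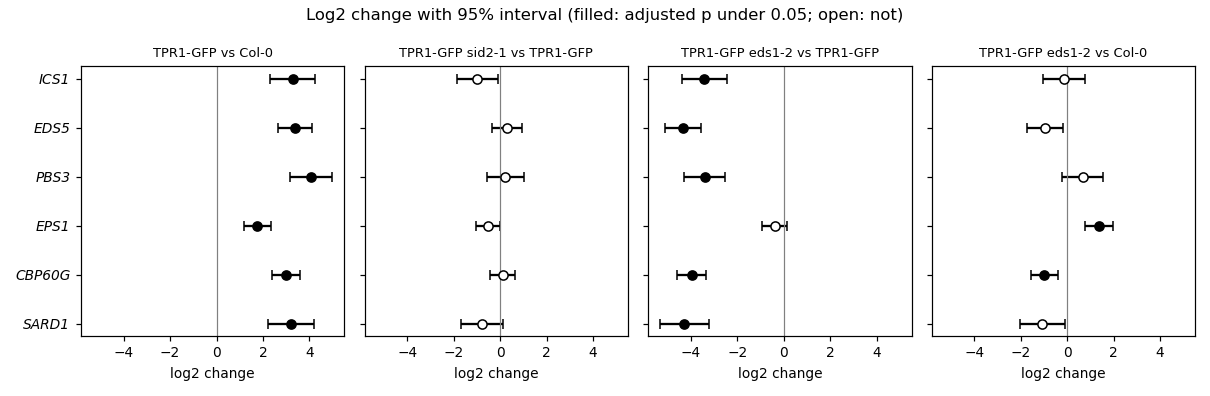
Log2 change of each gene (horizontal axis) with its 95% interval in 4 comparisons, filled where the adjusted p was under 0.05. All points are filled and right of 0 in the first panel, open around 0 in the second, and filled left of −3 in the third for all genes but *EPS1*.

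Ratios between members within a library do not depend on scaling. Those of *ICS1* to *PBS3* and *EDS5*, and of *SARD1* to *CBP60G*, were lower in TPR1-GFP sid2-1 than in TPR1-GFP. *ICS1* had 2.12, 1.98 and 1.97 counts per *PBS3* count in the TPR1-GFP libraries and 0.916, 0.913 and 0.80 in TPR1-GFP sid2-1. Per *EDS5* count it had 3.45, 3.25 and 3.37 against 1.42, 1.40 and 1.30. *SARD1* had 0.90, 0.909 and 0.87 counts per *CBP60G* count in TPR1-GFP and 0.485, 0.462 and 0.503 in TPR1-GFP sid2-1. Within each of these groups the ratios spread by less than the distance between them. *ICS1* per *SARD1* moved less, from 1.74, 1.64 and 1.66 to 1.37, 1.52 and 1.44. None of the 4 ratios overlapped between the genotypes, and in a two-sided exact permutation test each gave p = 0.10, the smallest p that 3 against 3 libraries allow, and 0.10 after adjustment over the 4. The ratios were chosen after the levels were known, and how often ratios of other genes fail to overlap was not tested. Groups that do not overlap always give this p, so the test adds nothing to the values.

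**Figure D3:**
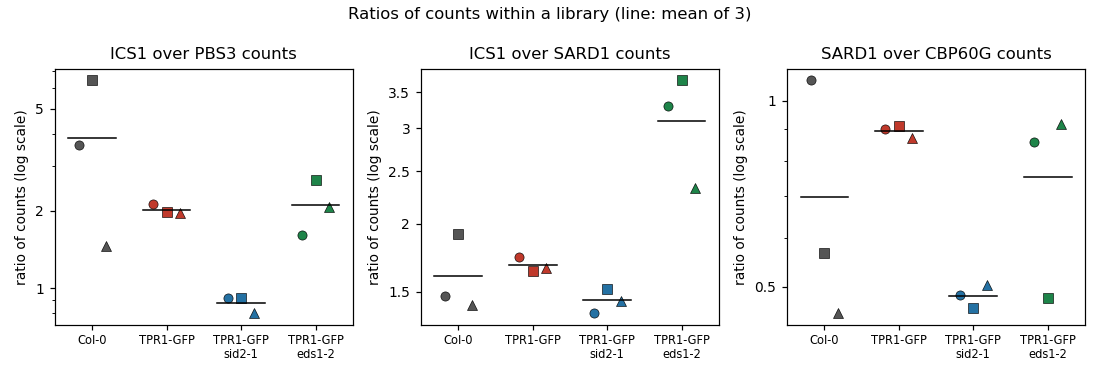
Ratio of counts (vertical axis, log scale) of *ICS1* to *PBS3*, *ICS1* to *SARD1* and *SARD1* to *CBP60G* in each library, by genotype. Circles, squares and triangles are replicates 1, 2 and 3, and lines are means. The sid2-1 libraries lie below 1 for *ICS1* to *PBS3* and near 0.5 for *SARD1* to *CBP60G*, apart from TPR1-GFP, and Col-0 and the eds1-2 line spread more widely.

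The third comparison asks whether the levels depend on EDS1. In TPR1-GFP eds1-2, 5 of the 6 genes fell against TPR1-GFP, from 10.6-fold for *ICS1* and *PBS3* to 20.1-fold for *EDS5*, and *EPS1* was not called. *ICS1* had 30.03, 25.9 and 23.3 CPM, *EDS5* 5.01, 2.72 and 4.81 CPM and *PBS3* 18.7, 9.75 and 11.3 CPM in the eds1-2 line. *CBP60G* had 10.6, 14.7 and 10.9 CPM and *SARD1* 9.10, 7.04 and 9.96 CPM. All these libraries lay below all TPR1-GFP libraries, as for 32.2% of all genes, at means of 4.99% (*EDS5*) to 9.47% (*PBS3*) of TPR1-GFP. *EPS1* had 2.98, 4.54 and 3.05 CPM, within reach of its 3.77 to 5.64 CPM in TPR1-GFP and at 76.7% of that mean. The log2 changes were −3.41 for *ICS1* (SE 0.44, adjusted p = 0.000105), −4.33 for *EDS5* (SE 0.36, adjusted p = 7.08e-06), −3.40 for *PBS3* (SE 0.40, adjusted p = 5.83e-05), −3.97 for *CBP60G* (SE 0.29, adjusted p = 2.93e-06) and −4.27 for *SARD1* (SE 0.48, adjusted p = 3.99e-05). For *EPS1* the change was −0.38, with a 95% interval of −0.91 to 0.15 and adjusted p = 0.204. Of all genes, 27.7% were called lower in this comparison and 25.2% higher. The counts of 5 calls lower and 1 not called were the same in every alternative run.

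Set against each other, the double lines differed in the same 5 genes, all higher in TPR1-GFP sid2-1, where 19.5% of all genes were called higher. *EDS5* differed most, by a log2 change of 4.64 (SE 0.36, adjusted p = 6.66e-06), followed by *CBP60G* with 4.07 (SE 0.29), *PBS3* with 3.63 (SE 0.41) and *SARD1* with 3.5 (SE 0.46). *ICS1* differed least of the 5, by 2.43 (SE 0.43, adjusted p = 0.00144). *EPS1* differed by −0.14 (95% interval −0.68 to 0.40, adjusted p = 0.688), and its sign changed without TPR1-GFP eds1-2 replicate 2.

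The eds1-2 line differs from Col-0 in both the transgene and the eds1-2 allele. Without eds1-2 plants that lack the transgene, the parts of the 2 in this comparison cannot be told apart. *EPS1* alone was higher, by a log2 change of 1.37 (SE 0.27, adjusted p = 0.00508), with every eds1-2 library above every Col-0 library. Of all genes, 17.5% were called, 9.48% higher and 8.02% lower, and 15.6% had all their eds1-2 libraries above Col-0. This is 78.1% of its log2 rise in TPR1-GFP. *CBP60G* was lower, by −0.99 (SE 0.27, adjusted p = 0.0258), with no overlap of the groups. The eds1-2 libraries all lay below Col-0 for 19.2% of all genes. That call was lost with replicate numbers as a block (adjusted p = 0.0502), with the 2 groups alone (0.0589) and without any 1 of Col-0 replicates 1 or 2 or eds1-2 replicates 1 or 3 (0.0677 to 0.088). *EDS5* had a change of −0.95 (adjusted p = 0.0896) without overlap of the groups and was called by DESeq2 (adjusted p = 0.0279). *SARD1* had −1.07 (95% interval −2.05 to −0.095, adjusted p = 0.123), and −1.46 (adjusted p = 0.0202) without Col-0 replicate 3. *PBS3* had 0.67 (−0.21 to 1.54, adjusted p = 0.274), and 1.23 (adjusted p = 0.0414) without Col-0 replicate 1. For *ICS1* the change was −0.13 (−1.04 to 0.78, adjusted p = 0.857), and without Col-0 replicate 1 it was 0.52. These values thus moved with the Col-0 library left out, and *EPS1* was the member whose call held in each alternative.

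Ordered by mean level, *ICS1* and *SARD1* stood highest in TPR1-GFP, then TPR1-GFP sid2-1, then Col-0 and last TPR1-GFP eds1-2. The top pair of genotypes did not overlap but was not called different, and the lower pair overlapped. *EDS5*, *PBS3* and *CBP60G* had their highest mean in TPR1-GFP sid2-1, which lay within the wider range of the TPR1-GFP libraries. Below these, *EDS5* and *CBP60G* were lowest in the eds1-2 line, and *PBS3* was lowest in Col-0 with overlap between the bottom pair. *EPS1* went down from TPR1-GFP through the eds1-2 line and the sid2-1 line, neighbours that all overlapped, to Col-0, which overlapped none of them. Per kilobase of exon, *ICS1* was the highest of the 6 in Col-0 (mean 13.3 CPM per kilobase), TPR1-GFP (129) and the eds1-2 line (12.1). In the sid2-1 line *CBP60G* was highest with 88.0 CPM per kilobase, and *ICS1* had 65.0, *PBS3* 62.3, *EDS5* 45.9 and *SARD1* 41.0. *EPS1* had 0.818 to 2.75 CPM per kilobase in all genotypes, the lowest of the 6 in each genotype but the eds1-2 line, where *EDS5* had 1.85 and *EPS1* 2.11.

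All members shared their highest library within Col-0 and their lowest within TPR1-GFP, and within the eds1-2 line they shared neither. The lowest Col-0 library was replicate 2 for *EDS5*, *PBS3* and *EPS1*, and replicate 3 for *ICS1*, *CBP60G* and *SARD1*. Replicate 1 was the highest Col-0 library for all 6 genes, as for 32.5% of all genes, and the lowest TPR1-GFP library for all 6, as for 42.8% of all genes. Replicate 3 was the highest TPR1-GFP library and the highest sid2-1 library for 5, as for 35.6% and 34.9% of all genes. The exception was *EPS1*, which was highest in TPR1-GFP replicate 2 and sid2-1 replicate 1. In the eds1-2 line, replicate 1 was the highest for *ICS1*, *EDS5* and *PBS3* but the lowest for *EPS1* and *CBP60G*, which were highest in replicate 2. Of all genes, 35.4% were highest and 33% lowest in eds1-2 replicate 1, and 41.3% were highest in replicate 2. Over the 12 libraries, Pearson's r of log2 CPM was 0.918 to 0.982 for the 10 pairs without *EPS1* and 0.456 to 0.665 for the 5 pairs with it. With the genotype means removed, r was 0.399 to 0.941 and 0.182 to 0.499, and the highest was that of *ICS1* with *SARD1* (0.941). These values are descriptions over libraries that share genotype, depth and scaling.

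**Figure D4:**
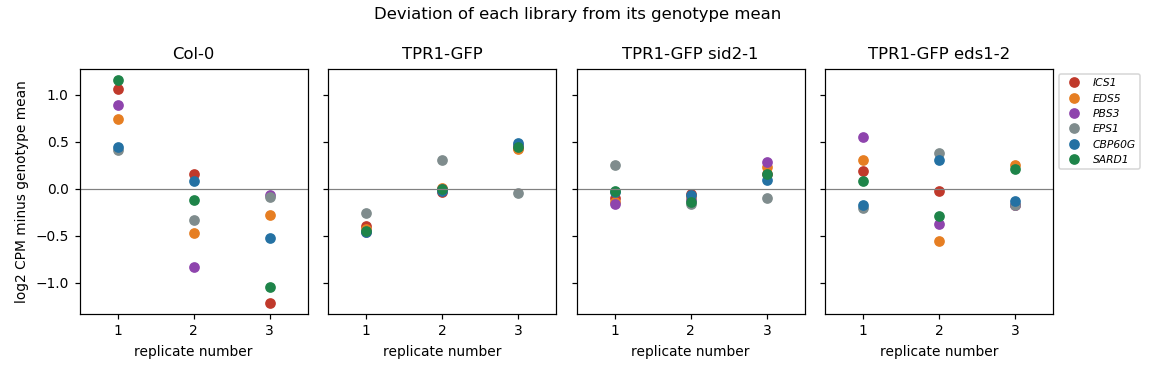
Log2 CPM minus the mean of the genotype (vertical axis) for each gene (colour) in replicates 1, 2 and 3 (horizontal axis) of each genotype. In Col-0 all genes are above 0 in replicate 1, in TPR1-GFP all are below 0 there, and the sid2-1 libraries lie close to 0.

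Among all 18877 genes, those whose levels over the 12 libraries were most like *ICS1* were AT3G25510, a putative TIR-NBS-LRR resistance gene (Pearson's r 0.991), *WRR4*, another of that class (0.989), and the monodehydroascorbate reductase gene AT3G09940 (0.988). *CBP60G* was most like AT1G69840, a membrane protein gene of the Band 7 family (0.997), AT5G42380, of the calmodulin-like family (0.995), and *CRK13*, a cysteine-rich receptor kinase gene (0.994). *SARD1* was most like AT4G38560 of the PEARLI 4 family (0.989), AT2G04495 (0.989) and the receptor kinase gene *SOBIR1* (0.989). Of the members, *SARD1* was the closest to *ICS1*, at rank 40 (r 0.975), and *EDS5* the closest to *CBP60G*, at rank 55 (0.982).

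*ICS2*, the second isochorismate synthase gene of the genome, went the other way from *ICS1*. Its level was 13.4, 16.9 and 19.96 CPM in Col-0 against 0.647, 0.659 and 0.876 CPM in TPR1-GFP, a log2 change of −4.53 (SE 0.23, adjusted p = 3.41e-07). It had 1.31, 1.65 and 2.23 CPM in the sid2-1 line, 1.28 above TPR1-GFP (SE 0.25, adjusted p = 0.0072) and −3.25 from Col-0 (SE 0.21, adjusted p = 2.46e-06). In the eds1-2 line it had 11.6, 10.4 and 12.3 CPM, 3.98 above TPR1-GFP (SE 0.23, adjusted p = 4.4e-07), and its change from Col-0 was −0.55 (adjusted p = 0.0521). The 3 TPR1-GFP libraries are the lowest of the 12, and the 3 sid2-1 libraries are the next. The coding sequences of *ICS1* and *ICS2* are identical at 1336 of 1677 aligned bases (79.7%), and 7 of 1592 exonic windows of 50 bases of *ICS1* occur elsewhere in the genome, against none of *ICS2*. Mean levels per kilobase of exon in Col-0 were 13.3 CPM for *ICS1* and 7.97 CPM for *ICS2*, and in TPR1-GFP they were 129 and 0.347 CPM.

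*PR1*, the usual readout of SA responses, was added after its values were known. Its level was 49.2, 14.3 and 1.58 CPM in Col-0 against 1092, 2272 and 1855 CPM in TPR1-GFP, a log2 change of 6.33 (SE 0.99, adjusted p = 0.000344). With sid2-1 in the line it came to 1.46, 0.537 and 0.304 CPM, and with eds1-2 to 4.62, 3.16 and 0.953 CPM. The 6 genes described here thus had levels above Col-0 in the sid2-1 line while *PR1* lay below every Col-0 library there (log2 change −4.91, adjusted p = 0.00511).

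**Figure D5:**
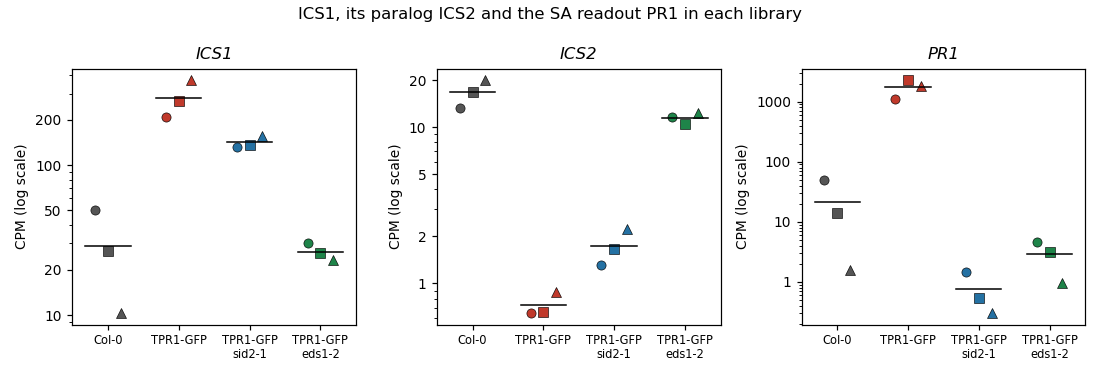
CPM (vertical axis, log scale) of *ICS1*, *ICS2* and *PR1* in each library by genotype. Circles, squares and triangles are replicates 1, 2 and 3, and lines are means. *ICS2* is lowest where *ICS1* is highest, and *PR1* is high in TPR1-GFP alone.

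Other transcription factors that are known to raise *ICS1* or its activators mostly rose as well. Of 9 such genes, 8 were called higher and 1 lower in TPR1-GFP against Col-0, 6 lower and 1 higher in the eds1-2 line against TPR1-GFP, and 1 higher and none lower in the sid2-1 line against TPR1-GFP. The shares of all genes were 27.5% higher and 26.4% lower in the first of these comparisons. They were 27.7% lower and 25.2% higher in the second, and 9.70% higher and 7.14% lower in the third. *WRKY46* had 4.20 to 17.7 CPM in Col-0, 72.6 to 127 CPM in TPR1-GFP, 79.2 to 101 CPM in the sid2-1 line and 6.40 to 7.44 CPM in the eds1-2 line, with a log2 change of 3.36 (SE 0.41, adjusted p = 7.17e-05) in TPR1-GFP against Col-0. *WRKY75*, at no more than 0.15 CPM in Col-0, had 1.33 to 3.35 CPM in TPR1-GFP and 2.85 to 4.42 CPM in the sid2-1 line. *TCP9* rose by 1.30 (SE 0.25, adjusted p = 0.001) and *TGA1*, which acts on *SARD1* and *CBP60G*, by 2.08 (SE 0.33, adjusted p = 0.000386). The gene called higher in the sid2-1 line against TPR1-GFP was *WRKY28*, by 1.90 (adjusted p = 0.00291), and in that comparison other settings called 1 to 4 of the 9.

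Of the 6 other loci of the *CBP60* family, 3 were higher in TPR1-GFP against Col-0 (27.5% of all genes), 3 were lower in the eds1-2 line against TPR1-GFP (27.7% of all genes), or 5 with scaling by library totals, and none was called in the sid2-1 line against TPR1-GFP by edgeR or DESeq2, where 1 had an unadjusted p under 0.05. *CBP60A*, known to act against SA production, had 17.9 to 21.02 CPM in Col-0, 45.6 to 59.2 CPM in TPR1-GFP, 47.2 to 48.9 CPM in the sid2-1 line and 19.5 to 26.1 CPM in the eds1-2 line. Its log2 change in TPR1-GFP against Col-0 was 1.43 (SE 0.13, adjusted p = 8.78e-06). AT4G25800 and AT5G57580 changed by 0.76 and 0.70 (adjusted p = 0.00665 and 0.000309).

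Of 11 genes known to hold *ICS1*, *EDS5* or SA levels down, 5 were higher and 2 lower in TPR1-GFP against Col-0, 1 higher and 2 lower in the sid2-1 line against TPR1-GFP, and 1 higher and 4 lower in the eds1-2 line against TPR1-GFP. Of all genes, 27.5% were called higher and 26.4% lower in the first of these comparisons. The shares were 9.70% and 7.14% in the second, and 25.2% and 27.7% in the third. In the last of these, scaling by library totals called 1 higher and 7 lower, and 3 were called, all lower, without eds1-2 replicate 1, while the sid2-1 line against TPR1-GFP had 3 higher and 2 lower with the 2 groups alone. Their median change in the first comparison was 0.0849, against 0.00809 for all genes. *WRKY54* and *WRKY70*, which act together to limit SA, fell in the sid2-1 line against TPR1-GFP by 2.62 and 1.25 on the log2 scale (adjusted p = 3e-04 and 0.00376). *WRKY54* had 15.5 to 29.7 CPM in Col-0, 57.9 to 105 CPM in TPR1-GFP, 12.7 to 15.6 CPM in the sid2-1 line and 55.0 to 63.7 CPM in the eds1-2 line, so that the sid2-1 line was low and the eds1-2 line high, the reverse of the 5 members. *NAC055*, a factor of the jasmonate branch that represses *ICS1*, rose in the sid2-1 line against TPR1-GFP by 3.22 (SE 0.66, adjusted p = 0.00915), from 0.144 to 0.717 CPM to 3.01 to 4.87 CPM. *CAMTA3*, which represses *CBP60G* and *SARD1*, rose in TPR1-GFP against Col-0 by 0.84 (SE 0.14, adjusted p = 0.00044) and fell in the eds1-2 line against TPR1-GFP by 1.20 on the log2 scale (adjusted p = 4.62e-05).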

How the data were processed

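Polyadenylated leaf RNA of 12 libraries was sequenced. The authors' deposited table holds raw read counts per gene, which were used for all levels and tests here. The submitters' processing notes name TopHat2, HTSeq and limma on TAIR10. Their versions and the strand setting are not given in the sources used here. The lowest deposited gene sum over the libraries is 101, so genes below it are not analysed here. The authors' deposited log2 values equal the log2 of the count plus 0.5 with a constant added per library, which was tested on all genes. The authors' deposited log2 changes and false discovery rates (adjusted p-values) have TPR1-GFP minus the other genotype, were turned to the directions used here and served as an alternative only.

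From the counts, genes kept by edgeR's filterByExpr (18877) were tested with edgeR 4.0.16 in R 4.3.3, using TMM scaling, a robust quasi-likelihood fit of genotype over all 12 libraries and Benjamini-Hochberg adjustment over all genes tested, called under 0.05. The SE is the size of the log2 change over the root of its F statistic. CPM are counts per 1e6 TMM-scaled counts, and log2 CPM add a prior count of 2. The test was checked on simulated data. Chi-square per degree of freedom between libraries of a genotype was 6.81 to 39.1, which leaves no copies among them. Totals of 19628974 counts or more make the spread between libraries, not counting error, the limit for all members but *EPS1*.

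Alternatives were other scalings, no filter, DESeq2 1.42.0, the 2 groups alone, replicate numbers as a block (deviations of same-numbered libraries correlated above 0.1 in all 3 pairs for Col-0 with the sid2-1 line alone), the authors' deposited values and leaving out each of the 12 libraries. The members and the lists around them (73 loci) were chosen with earlier results of these data known. Beside the members, up to 4 called genes with the largest change per list and comparison could be named, with *TPR1*, *EDS1* and AT3G48080, and of the nearest patterns up to 5 per gene. Not all of these were named. A gene named for 1 comparison could also be given in others, where it need not be among the largest changes, as for *CAMTA3* and *DMR6* in TPR1-GFP against Col-0. *PR1* was added after its values were known. Of 18884 locus codes, 18777 were found in RefSeq's TAIR10.1, the source of positions and sequences; TAIR10 coordinates were not converted.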

Additional observations from a re-analysis of the deposited data

How the results depend on the processing

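Over all alternatives, members' log2 changes kept direction and side of the threshold in 685 cases, gained a call in 8, lost one in 6 and changed sign in 3, and other named genes did so in 2178, 5, 128 and 5. Calls of members in TPR1-GFP sid2-1 against TPR1-GFP, none in the fit over all libraries, came to 2 with the 2 groups alone and to 0 to 2 with a library left out. In TPR1-GFP eds1-2 against Col-0 the 2 calls became 1 with a replicate block, 1 with the 2 groups alone and 1 to 3 with a library left out. Genes called in the sid2-1 line against TPR1-GFP, 3179 in all, ran with a library left out from 1172 (without TPR1-GFP replicate 2) to 3643, and over all alternatives up to 4063. In the eds1-2 line against Col-0 they were 3303, with a library left out 2103 (without Col-0 replicate 2) to 3396, and over all alternatives 1804 (the 2 groups alone) to 3905. The cause was not tested, though the 2 groups alone leave fewer libraries to estimate the spread.

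Log2 changes that changed sign, none of them called over all libraries, were those of *CBP60G* in the sid2-1 line against TPR1-GFP (from −0.094 without TPR1-GFP replicate 1 to 0.382 without replicate 3), *EPS1* between the double lines (from −0.295 without sid2-1 replicate 1 to 0.084 without eds1-2 replicate 2), *ICS1* in the eds1-2 line against Col-0 (0.522 without Col-0 replicate 1, −0.536 without replicate 3) and *EDS1* in the sid2-1 line against TPR1-GFP (−0.198 without TPR1-GFP replicate 1, 0.0116 without replicate 3). The others were AT3G48080 in the sid2-1 line against Col-0 (0.12 without Col-0 replicate 1, −0.969 and called without replicate 3) and *TPR1* between the double lines (0.065 with library totals, 0.155 without sid2-1 replicate 1, −0.167 without sid2-1 replicate 2 and 0.11 without eds1-2 replicate 2). Scaling by library totals moved the median log2 change of all genes to 0.262 in TPR1-GFP against Col-0, −0.199 in the eds1-2 line against TPR1-GFP and 0.171 in the sid2-1 line against Col-0, and no member's direction changed with scaling. It put the share of calls that were higher at 72.9% (51% with TMM) in TPR1-GFP against Col-0, 38.1% (57.6%) in the sid2-1 line and 32.6% (47.6%) in the eds1-2 line against TPR1-GFP, 70% (56.7%) between the double lines, and 76.5% (52.6%) and 70.8% (54.2%) for these lines against Col-0. Upper-quartile scaling gave 59.7% in the eds1-2 line against TPR1-GFP and 43.2% between the double lines.

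Replicate numbers paired the libraries of 1 comparison alone: deviations of same-numbered libraries correlated above 0.1 in 8 of 18 pairs (−0.333 to 0.356), among them all 3 of Col-0 with the sid2-1 line (0.172, 0.22 and 0.309), and in no other comparison all 3. With numbers as a block, the call of *CBP60G* in the eds1-2 line against Col-0 was lost (−0.998, adjusted p = 0.0502), and no other call of a member changed.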

Other observations

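Genes of SA turnover, whose products act on SA or on its modified forms such as methyl salicylate, were followed beside those that make it. The list had 15 loci, of which 12 were tested, and its counts do not separate loss of SA from its release. In TPR1-GFP against Col-0, 7 were called higher and 2 lower, in the sid2-1 line against TPR1-GFP 1 higher and 3 lower, and in the eds1-2 line against TPR1-GFP 2 higher and 5 lower. For all genes the shares in the same order were 27.5% higher and 26.4% lower, 9.70% and 7.14%, and 25.2% and 27.7%. The largest change of the list in TPR1-GFP against Col-0 was a fall, that of the methyl esterase gene *MES7*. Its log2 change was −4.86 (adjusted p = 0.000246 in edgeR's quasi-likelihood test), with 2 to 4 counts per TPR1-GFP library. In the eds1-2 line against TPR1-GFP *MES7* rose by 3.21 (adjusted p = 0.00585), a call that the authors' deposited values lacked (0.0531). *DMR6*, the SA 5-hydroxylase gene, had 33.2 to 162 CPM in Col-0, 469 to 648 CPM in TPR1-GFP, 105 to 132 CPM in the sid2-1 line and 26.8 to 46.0 CPM in the eds1-2 line. The sid2-1 libraries thus lay within the Col-0 range, unlike those of the members. Its log2 change was 2.73 in TPR1-GFP against Col-0 (SE 0.45, adjusted p = 0.000492 in edgeR's quasi-likelihood test), −2.32 in the sid2-1 line (adjusted p = 0.00725) and −3.93 in the eds1-2 line (adjusted p = 6.99e-05) against TPR1-GFP. *DLO1*, the SA 3-hydroxylase gene, had 0.566 to 12.9 CPM in Col-0, 76.3 to 150.3 CPM in TPR1-GFP and 8.84 to 12.6 CPM in the sid2-1 line, a log2 change of −3.48 (SE 0.69, adjusted p = 0.00834) between the last of these. *UGT71C3*, whose product glucosylates methyl salicylate, was the 1 gene of the list called higher in the sid2-1 line against TPR1-GFP, from 0.0573 to 0.252 CPM to 2.35 to 3.52 CPM (log2 change 4.06, SE 0.52, adjusted p = 0.000926). With the 2 groups alone, 4 genes of the list were called higher and 4 lower in that comparison. *MES9*, a methyl esterase gene, fell there by 1.64 on the log2 scale (adjusted p = 0.0135), a call lost without TPR1-GFP replicate 2 or 3 or sid2-1 replicate 2.

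The other routes to SA (7 loci, *ICS2* among them) had no gene called higher and 3 lower in TPR1-GFP against Col-0, 3 higher in the sid2-1 line and 6 higher in the eds1-2 line against TPR1-GFP. For all genes the shares were 27.5% higher and 26.4% lower, then 9.70% higher and 25.2% higher. *PAL2*, of the phenylalanine route, had 82.3 to 97.6 CPM in TPR1-GFP, 120 to 131 CPM in the sid2-1 line and 128 to 146 CPM in the eds1-2 line, with log2 changes of 0.52 (adjusted p = 0.00431) and 0.62 (adjusted p = 0.000189). *PAL4* rose in the eds1-2 line against TPR1-GFP by 1.75 (SE 0.31, adjusted p = 0.000652), from 1.95 to 3.13 CPM to 5.75 to 11.6 CPM.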
